A study of Mus musculus with 17 samples.

Results

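The genes described here are the 4 *Id* genes (*Id1*, *Id2*, *Id3* and *Id4*) and 4 genes of BMP signalling and its feedback (*Bmp4*, *Smad6*, *Smad7* and *Bambi*). They were chosen by name, and all 8 were found among the 15470 rows of the expression table and were among the 15117 genes tested. RNA was sequenced from mouse *Nanog* KO ES cells (line BT12, genotype Nanog KO) and from their wild-type parental line (E14Tg2a, here the control). At 0 h both lines were in LIF, serum replacement and 2i (CHIR-99021 and PD0325901, inhibitors of GSK3 and MEK) over inactivated mouse embryonic fibroblasts. For 12 or 24 h they were then given serum with 2i and LIF withdrawn. Each of the 6 groups had 3 libraries, but for the 0 h control only 2 were analysed (replicates 2 and 3). The mutant is a single line, so the loss of *Nanog* and other differences between the lines cannot be told apart.

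BMP ligands are secreted and bind paired serine/threonine kinase receptors, which phosphorylate the receptor Smads. These join Smad4, enter the nucleus and switch on target genes, of which the *Id* genes are among the most direct. Id proteins carry a helix-loop-helix domain but no basic DNA-binding region, so they capture E proteins and other bHLH factors and keep them off DNA. *Smad6* and *Smad7* encode inhibitory Smads that act on the receptors, and *Bambi* encodes a receptor-like membrane protein without kinase activity, so all 3 feed back on the pathway. In mouse ES cells BMP from serum, together with LIF, is known to sustain self-renewal through *Id* genes. The comparisons ask how these genes stood with and without *Nanog* and how they changed when serum, a source of BMP, replaced 2i/LIF.

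Values are CPM, read counts relative to the library size after TMM scaling, which balances libraries on the genes that differ little. Library sizes ran from 8775372 to 33766086 reads, and 3 reads, the upper limit for a gene without a read (counting error only), corresponded to 0.0851 to 0.326 CPM. *Nanog* stood at 12.5 to 34.6 CPM in *Nanog* KO libraries and at 271 to 412 CPM in control libraries. The 10 ES cell markers listed, such as *Pou5f1* and *Sox2*, summed to 3733 to 4897 CPM per library. Fold changes are differences of log2(CPM + 1), which understate the change of low genes, and were tested with limma in 1 fit of all 17 libraries. A gene was called at an adjusted p under 0.05 (Benjamini-Hochberg over all tested genes). Whether replicates were grown as separate cultures is stated nowhere in the labels or methods, and a p-value here reflects only the scatter among these libraries, possibly technical in origin.

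The bulk libraries held RNA of marker genes of other cell types too. Of 20 fibroblast markers, all were present, with none at 0 in any group. Their summed level was 3311 to 3637 CPM in control libraries at 0 h, 3269 to 3456 CPM at 12 h and 2153 to 2390 CPM at 24 h, and 3037 to 3258, 2484 to 2732 and 1642 to 1832 CPM in *Nanog* KO libraries. *Fn1* and *Sparc*, which other cells express too, were the largest of this list in *Nanog* KO at 24 h, at means of 711 and 614 CPM. *Pdgfra*, also listed as a primitive endoderm marker, was then at 44.3 CPM in *Nanog* KO and 3.71 CPM in the control. *Tagln*, *Acta2* and *Col3a1* had 24 h means of 21.5, 16.8 and 40.2 CPM in *Nanog* KO against 102, 110 and 145 CPM in the control. *Sparc*, *Pdgfra*, *Col6a1*, *Col6a2*, *Lox*, *Thy1* and *Lum* had higher means in *Nanog* KO at 24 h. The collagen gene *Col1a1*, a defining marker, had means of 595 CPM at 0 h and 220 CPM at 24 h in the control, and 437 and 108 CPM in *Nanog* KO. Others of the list did not follow it, such as *Col1a2*, at 213 and 219 CPM in the control and 204 and 66.3 CPM in *Nanog* KO, and *Col6a1*, at 19.2 CPM in the control and 26.5 CPM in *Nanog* KO at 0 h. The 11 primitive endoderm markers summed to 162 to 234 CPM in control libraries, and to 846 to 889, 1282 to 1379 and 1616 to 1771 CPM in *Nanog* KO libraries at 0, 12 and 24 h. Fewer cells of a type and less RNA per cell cannot be told apart, nor can marker RNA of separate cells and of the ES cells themselves. The part of other cells in the results below was not tested.

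At 0 h, 6 of the 8 genes were lower in *Nanog* KO cells and none was higher, against 26.9% of all tested genes lower and 25.4% higher. The 6 were *Id3*, *Smad6*, *Id4*, *Id2*, *Smad7* and *Bmp4*, in order of their log2 fold change. At 12 h, 5 were lower and none higher (25.2% and 24.6% of tested genes), as *Id4* was no longer called. At 24 h, 4 were lower and 1 was higher (24.5% and 23.4%), the higher gene being *Id1*. The median log2 fold change of the 8 genes was -0.70, -0.48 and -0.46 at 0, 12 and 24 h, and that of all tested genes was -0.01, -0.002 and -0.01. *Bambi* was called at no time.

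**Figure D1:**
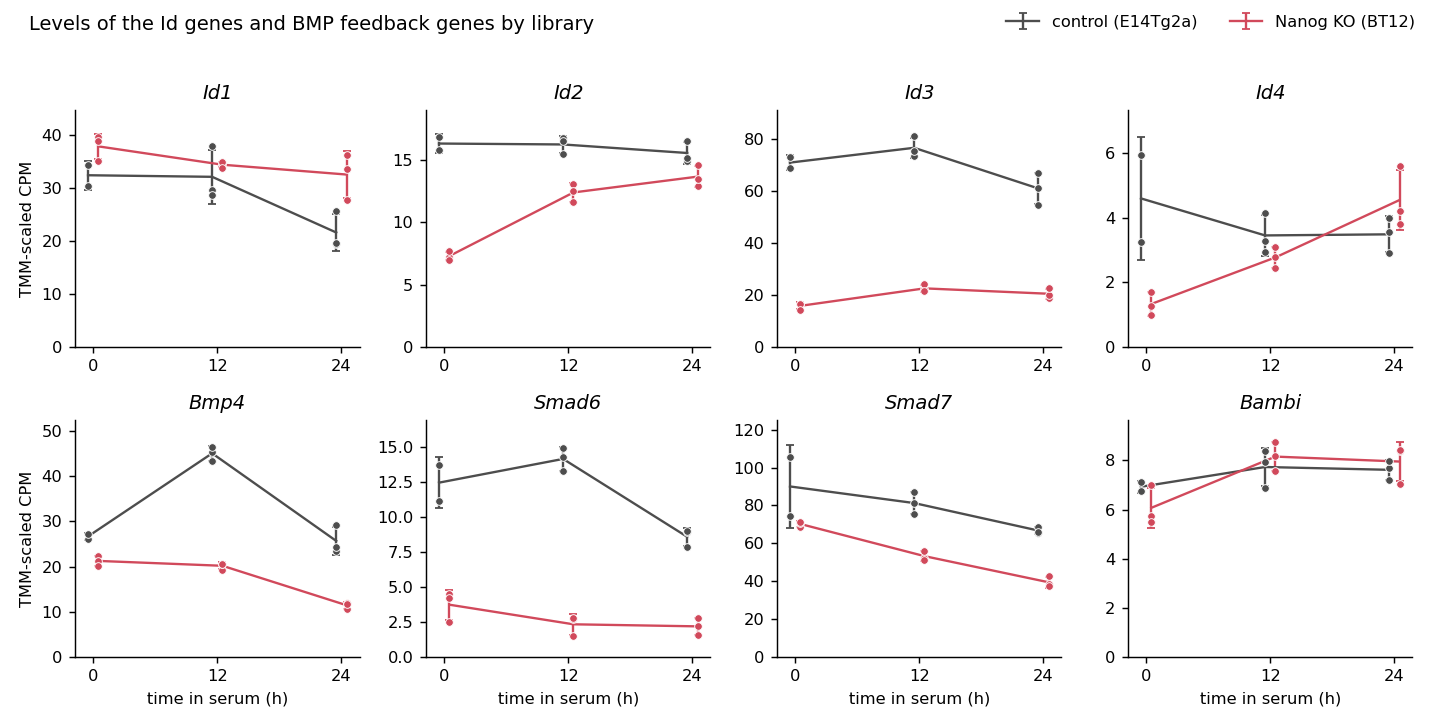
Levels of the 8 genes in TMM-scaled CPM (vertical axes, from 0) against hours in serum, where points are libraries, lines join group means and bars are the SD of 2 libraries (control at 0 h) or 3 libraries. *Id3* and *Smad6* in *Nanog* KO (red) lie far below the control (grey) at all times, *Id2* and *Id4* in *Nanog* KO rise to near it by 24 h, and *Bmp4* peaks at 12 h in the control.

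*Id3* had the widest gap between the lines among the 8 genes at 0 h, and came next to *Smad6* at 12 and 24 h. *Id3* (ENSMUSG00000007872, chromosome 4 from 136143497 to 136145755, + strand, of GRCm38) stood at 16.6, 16.3 and 14.2 CPM in *Nanog* KO libraries at 0 h and at 72.8 and 68.7 CPM in control libraries. At 12 h it was 22.1, 23.9 and 21.3 against 73.4, 80.9 and 75.2 CPM, and at 24 h 18.7, 19.9 and 22.6 against 66.8, 54.6 and 61.1 CPM. Every control library was above every *Nanog* KO library, and the nearest of them, at 54.6 and 23.9 CPM, were still more than a factor of 2 apart. The ratio of the means, control over *Nanog* KO, was 4.50 at 0 h, 3.41 at 12 h and 2.99 at 24 h. The log2 fold changes were -2.11 ± 0.09 (SE), -1.73 ± 0.08 and -1.53 ± 0.08 (limma, adjusted p = 2.4e-12, 8.8e-12 and 3.9e-11).

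*Id3* rose in *Nanog* KO cells in the first 12 h, by 0.49 ± 0.08 on the log2 scale (limma, adjusted p = 8.7e-05), and had changed by 0.35 ± 0.08 at 24 h (adjusted p = 0.0014). In control cells the first step was 0.11 ± 0.09 (adjusted p = 0.35), and from 12 to 24 h *Id3* fell by 0.33 on that scale (SE 0.08, adjusted p = 0.0057). The interaction, which is the change in *Nanog* KO minus the change in control, was 0.57 ± 0.12 over 24 h (adjusted p = 0.002), as the ratio narrowed. Over the first 12 h it was 0.38 ± 0.12 (adjusted p = 0.039), a call that was lost in 7 of the 17 fits that each left out 1 library. These libraries were replicate 3 of *Nanog* KO at 0 h, replicates 1 and 2 of *Nanog* KO at 12 h, both control libraries at 0 h and replicates 1 and 3 of the control at 12 h, with values of 0.31 to 0.42 and adjusted p from 0.057 to 0.12. With the replicate number as a block the interaction was 0.38 (adjusted p = 0.061), and without the variance trend it was 0.38 (adjusted p = 0.061).

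*Id1* did not share the deficit of *Id3*. *Id1* (ENSMUSG00000042745, chromosome 2 from 152736251 to 152737410, + strand) stood at 39.5, 38.9 and 35.1 CPM in *Nanog* KO libraries at 0 h against 34.3 and 30.4 CPM in the control. At 12 h it was 34.5, 34.8 and 33.8 against 29.6, 37.9 and 28.7 CPM, and at 24 h 27.7, 33.6 and 36.2 against 25.7, 19.5 and 19.6 CPM. The lines overlapped at 12 h, and at 0 and 24 h all *Nanog* KO libraries were above the control ones. The log2 fold change was 0.22 ± 0.13 at 0 h (limma, adjusted p = 0.16), 0.11 ± 0.11 at 12 h (adjusted p = 0.46) and 0.57 ± 0.11 at 24 h (adjusted p = 0.00041), the last a ratio of means of 1.51.

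The late difference of *Id1* came with a fall in the control. From 12 to 24 h *Id1* fell by 0.55 on the log2 scale in control cells (SE 0.11, limma, adjusted p = 0.0012), from 32.1 ± 5.07 to 21.6 ± 3.54 CPM (SD, n = 3), and changed by -0.09 ± 0.11 in *Nanog* KO cells (adjusted p = 0.62). These steps were not shown to differ, with an interaction of 0.47 ± 0.16 from 12 to 24 h (adjusted p = 0.12), although leaving out replicate 1 of the 24 h control libraries brought it past the threshold (0.59, adjusted p = 0.027). Over 24 h the interaction was 0.35 ± 0.17 (adjusted p = 0.13), and it passed without replicate 1 of *Nanog* KO at 24 h (0.46, adjusted p = 0.047) or replicate 1 of the control at 24 h (0.48, adjusted p = 0.027). Fibroblast markers summed to less at 24 h than at 12 h in both lines, as given above.

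*Id2* was low in *Nanog* KO cells at 0 h and closed most of the gap in serum. *Id2* (ENSMUSG00000020644, chromosome 12 from 25093799 to 25097140, - strand) stood at 7.19, 7.70 and 7.003 CPM in *Nanog* KO against 16.9 and 15.8 CPM in control libraries at 0 h. It was 13.1, 12.5 and 11.6 against 16.8, 15.5 and 16.5 CPM at 12 h, and 12.9, 13.5 and 14.6 against 14.96, 15.2 and 16.6 CPM at 24 h. The libraries of the lines did not overlap at any time, but at 24 h the nearest were 14.6 and 14.96 CPM. The log2 fold change went from -1.06 ± 0.09 (limma, adjusted p = 7.5e-09) to -0.37 ± 0.08 (adjusted p = 0.00067) and -0.18 ± 0.08 (adjusted p = 0.07).

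The movement of *Id2* was in the mutant. In *Nanog* KO cells it rose by 0.69 ± 0.08 in 12 h and 0.82 ± 0.08 in 24 h (log2, limma, adjusted p = 7.8e-07 and 5.6e-08), and in control cells the changes were -0.01 ± 0.09 and -0.07 ± 0.09 (adjusted p = 0.96 and 0.55). The interaction was 0.70 ± 0.12 over 12 h and 0.89 ± 0.12 over 24 h (adjusted p = 0.00039 and 1.6e-05). At 24 h the genotype difference of *Id2* passed without replicate 3 of *Nanog* KO at 24 h (-0.22, adjusted p = 0.042) and in edgeR's quasi-likelihood test (-0.20, adjusted p = 0.039).

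*Id4*, the rarest member of the family here, rose in *Nanog* KO cells from below to about the level of the control. *Id4* (ENSMUSG00000021379, chromosome 13 from 48261228 to 48266026, + strand) stood at 0.989, 1.27 and 1.71 CPM, from 19 to 39 reads, in *Nanog* KO libraries at 0 h. It was 2.44, 3.09 and 2.76 CPM at 12 h and 4.21, 3.81 and 5.595 CPM at 24 h. The control libraries were at 3.24 and 5.94 CPM at 0 h, 4.14, 2.94 and 3.26 CPM at 12 h, and 2.89, 3.55 and 3.999 CPM at 24 h. The lines were apart at 0 h and overlapped at 12 and 24 h.

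The log2 fold change of *Id4* between the lines was -1.24 ± 0.20 at 0 h (limma, adjusted p = 4.2e-05), -0.23 ± 0.18 at 12 h (adjusted p = 0.29) and 0.30 ± 0.18 at 24 h (adjusted p = 0.18). In *Nanog* KO cells it rose by 0.70 ± 0.18 in 12 h and 1.25 ± 0.18 in 24 h (adjusted p = 0.003 and 9.6e-06), and the ratio of means was 3.43. The interaction over 24 h was 1.54 ± 0.27 (adjusted p = 0.00029). Over 12 h it was 1.001 ± 0.27 (adjusted p = 0.014), and 0.64 (adjusted p = 0.11) without replicate 3 of the control at 0 h. The second step in *Nanog* KO cells, 0.55 ± 0.18 (adjusted p = 0.029), did not pass when replicate 1 or 3 of the 12 h *Nanog* KO libraries was left out (0.48 and 0.55, adjusted p = 0.10 and 0.067) or replicate 3 at 24 h (0.42, adjusted p = 0.13). In control cells the sign of the 24 h change rested on the 0 h library used, at -0.64 (adjusted p = 0.023) without replicate 2 and 0.07 (adjusted p = 0.81) without replicate 3. *Id4* overlaps antisense genes in the annotation, and with no statement that strand was used in counting, their reads cannot be told apart.

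Per length, *Id3* led the family in control cells and *Id1* led it in *Nanog* KO cells. On the scale of CPM per kb of merged exons, the 4 *Id* genes summed to 72.6 to 78.0 in control libraries at 0 h and to 41.5 to 46.6 in *Nanog* KO libraries. At 24 h the sums were 54.4 to 66.3 and 40.7 to 51.3, so that the lines were apart at both times. At 0 h *Id3* made up 52.1% to 52.8% of this sum in control libraries and 19.1% to 19.9% in *Nanog* KO libraries. *Id1* made up 36.1% to 37.9% and 72.7% to 73.2%. At 24 h the share of *Id1* was 28.7% to 33.4% in the control and 58.7% to 62.2% in *Nanog* KO libraries.

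The ratio of *Id3* to *Id1* per length was 1.37 to 2.02 over the control libraries and 0.262 to 0.445 over the *Nanog* KO libraries. It is a ratio within each library and therefore does not depend on the scaling between libraries. *Id2* made up 6.33% to 13.1% of the sum and *Id4* 0.552% to 2.84% over all 17 libraries. Exon lengths were those of GENCODE M21, and the isoforms in use were not known, so levels between genes are approximate.

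**Figure D2:**
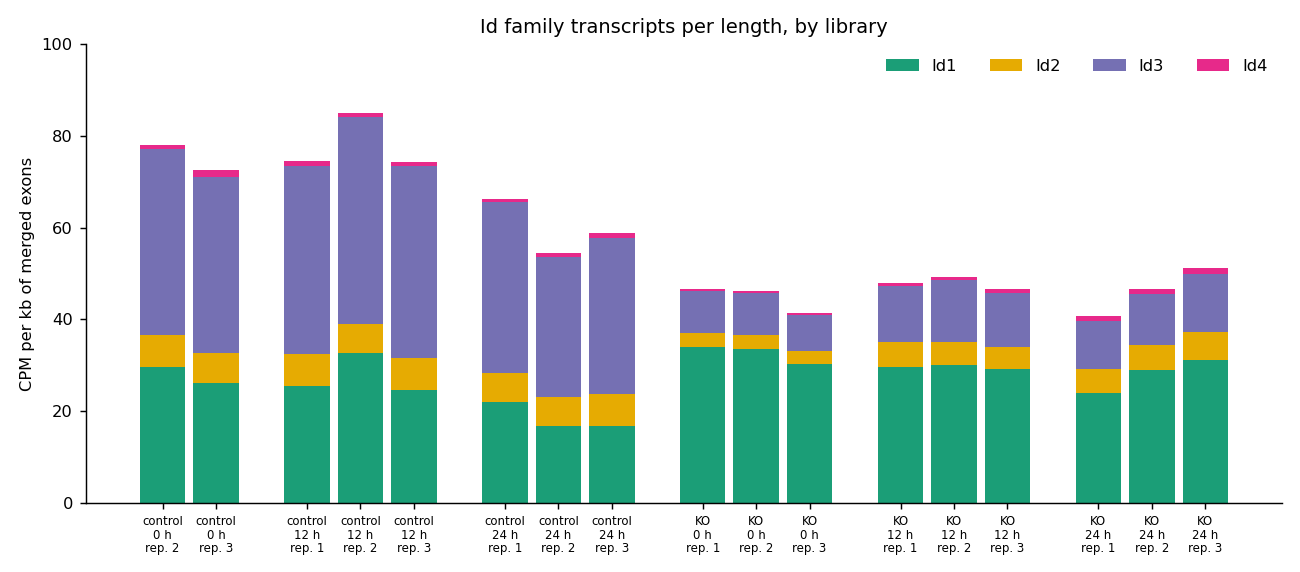
*Id* transcripts in CPM per kb of merged exons (vertical axis, from 0) as stacked bars, 1 bar per library, grouped by genotype and time. The *Id3* part (purple) shrinks from 52.1% to 52.8% of the control bars at 0 h to 19.1% to 19.9% of the *Nanog* KO bars, and the *Id1* part (green) is the tallest of each *Nanog* KO bar.

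*Bmp4*, the ligand of the set, rose in control cells and not in *Nanog* KO cells during the first 12 h, and then fell in both. *Bmp4* (ENSMUSG00000021835, chromosome 14 from 46383520 to 46390669, - strand) stood at 26.1 and 27.2 CPM in control libraries at 0 h, at 43.3, 45.5 and 46.5 CPM at 12 h, and at 23.4, 24.4 and 29.3 CPM at 24 h. In *Nanog* KO libraries it was 22.3, 21.2 and 20.2 CPM, then 19.3, 20.5 and 20.7 CPM, then 12.0, 10.6 and 11.7 CPM. Control libraries were above *Nanog* KO libraries at each time, and the 12 h control libraries were above all others.

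The genotype difference of *Bmp4* was -0.32 ± 0.09 at 0 h, -1.12 ± 0.08 at 12 h and -1.10 ± 0.08 at 24 h (log2, limma, adjusted p = 0.0052, 1.2e-09 and 1.7e-09). The first step was 0.74 ± 0.09 in control cells (adjusted p = 2.1e-06) and -0.07 ± 0.08 in *Nanog* KO cells (adjusted p = 0.47), an interaction of -0.81 ± 0.12 (adjusted p = 0.00011). In the second step *Bmp4* fell by 0.79 in control cells and by 0.77 in *Nanog* KO cells (SE 0.08 each, adjusted p = 7.6e-07 and 1.4e-06). The difference between these falls was 0.03, with an SE of 0.11 (adjusted p = 0.94). Fibroblast markers summed to less at 24 h than at 12 h in both lines. In the control they summed to 3311 to 3637 CPM at 0 h and 3269 to 3456 CPM at 12 h, while single markers moved apart, with *Fn1* at means of 922 and 1362 CPM and *Tagln* at 496 and 180 CPM, and their part in the rise of *Bmp4* was not tested. *Bmp4* overlaps *Gm15217* and *Gm15222* on the other strand, and their reads cannot be told apart.

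*Smad6* was lower in *Nanog* KO cells than in control cells at all times. *Smad6* (ENSMUSG00000036867, chromosome 9 from 63953076 to 64022059, - strand) stood at 4.48, 4.19 and 2.49 CPM in *Nanog* KO against 11.2 and 13.7 CPM in control libraries at 0 h. It was 2.73, 1.47 and 2.76 against 14.2, 14.9 and 13.3 CPM at 12 h, and 1.58, 2.76 and 2.18 against 8.92, 8.98 and 7.81 CPM at 24 h. The highest *Nanog* KO library, at 4.48 CPM, was below the lowest control library, at 7.81 CPM. The ratio of means, control over *Nanog* KO, was 3.34, 6.09 and 3.94. The log2 fold changes were -1.53 ± 0.20, -2.21 ± 0.18 and -1.61 ± 0.18 (limma, adjusted p = 4.2e-06, 1.0e-08 and 7.4e-07).

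With time *Smad6* fell in control cells from 12 to 24 h, by 0.66 on the log2 scale (SE 0.18, limma, adjusted p = 0.0096). In *Nanog* KO cells, where it rested on 23 to 86 reads per library, it changed by -0.51 ± 0.18 in 12 h and -0.56 ± 0.18 in 24 h (adjusted p = 0.026 and 0.013). The 12 h call was lost without replicate 1 or 2 of *Nanog* KO at 0 h (-0.39 and -0.42, adjusted p = 0.12 and 0.10) or replicate 2 at 12 h (-0.31, adjusted p = 0.17). The 24 h call was lost without replicate 1 or 2 of *Nanog* KO at 0 h (-0.44 and -0.48, adjusted p = 0.071 and 0.058) or replicate 1 at 24 h (-0.42, adjusted p = 0.077).

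*Smad7*, the other inhibitory Smad and the more abundant per length, had genotype differences nearer to 0 than those of *Smad6*. *Smad7* (ENSMUSG00000025880, chromosome 18 from 75367529 to 75395935, + strand) stood at 68.5, 70.8 and 71.3 CPM in *Nanog* KO libraries at 0 h. The control libraries were at 74.5 and 106 CPM, a spread wider than that of any other group. At 12 h it was 52.2, 56.1 and 51.3 against 81.1, 87.3 and 75.4 CPM, and at 24 h 38.3, 37.3 and 42.6 against 68.5, 65.5 and 66.1 CPM. All control libraries were above the *Nanog* KO libraries of the same time. The log2 fold changes were -0.33 ± 0.10, -0.60 ± 0.09 and -0.75 ± 0.09 (limma, adjusted p = 0.0095, 2.0e-05 and 1.6e-06). The 0 h value rested on the control library, at -0.08 (adjusted p = 0.45) without replicate 3 and -0.58 (adjusted p = 2.3e-05) without replicate 2.

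*Smad7* fell over 24 h in both lines. In *Nanog* KO cells it fell by 0.39 in the first 12 h and by 0.43 from 12 to 24 h (log2, SE 0.09 each, limma, adjusted p = 0.0013 and 0.0018). In control cells the change over 24 h was -0.41 ± 0.10 (adjusted p = 0.0023), at -0.16 (adjusted p = 0.14) without replicate 3 of the control at 0 h and -0.65 (adjusted p = 7.5e-06) without replicate 2. The control's step from 12 to 24 h was -0.28 ± 0.09 (adjusted p = 0.025) and was lost without replicate 1 or 2 of the control at 12 h or replicate 2 or 3 at 24 h (-0.28, -0.23, -0.26 and -0.27, adjusted p from 0.056 to 0.11). The interaction over 24 h was -0.41 ± 0.13 (adjusted p = 0.027). It was not called without replicate 2 of the control at 0 h (-0.17, adjusted p = 0.26), replicate 3 of the 0 h *Nanog* KO libraries, or their 24 h replicates 1 or 2 (-0.40, -0.40 and -0.38, adjusted p = 0.053, 0.052 and 0.057), and was -0.66 without replicate 3 of the control at 0 h. It was also lost when only the compared groups were fitted and without the variance trend (adjusted p = 0.053 in both).

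The ratio of *Smad6* to *Smad7* per length was 0.167 to 0.248 over the control libraries and 0.0369 to 0.104 over the *Nanog* KO libraries. The ranges of the lines did not overlap, so *Smad6* was low relative to *Smad7* in each *Nanog* KO library.

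*Bambi* did not pass the test between the lines at any time, and its libraries overlapped. *Bambi* (ENSMUSG00000024232, chromosome 18 from 3507923 to 3516404, + strand) was at 5.73, 7.01 and 5.47 CPM in *Nanog* KO libraries against 6.75 and 7.10 CPM in the control at 0 h. It was 8.74, 8.17 and 7.56 against 6.87, 8.40 and 7.93 CPM at 12 h, and 8.38, 7.04 and 8.44 against 7.71, 7.18 and 7.96 CPM at 24 h. The log2 fold changes were -0.17, 0.07 and 0.05, with 95% intervals of -0.42 to 0.08, -0.15 to 0.29 and -0.17 to 0.27 (limma, adjusted p = 0.24, 0.61 and 0.71). In *Nanog* KO cells *Bambi* rose by 0.38 ± 0.11 in 12 h and 0.34 ± 0.11 in 24 h (adjusted p = 0.0061 and 0.0097), the latter at 0.28 (adjusted p = 0.052) without replicate 3 of *Nanog* KO at 0 h. In control cells it changed by 0.14 ± 0.12 and 0.12 ± 0.12 (adjusted p = 0.36 and 0.41). The annotation holds a processed pseudogene, *Bambi-ps1*, and how the authors' counting shared reads with it is uncertain.

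**Figure D3:**
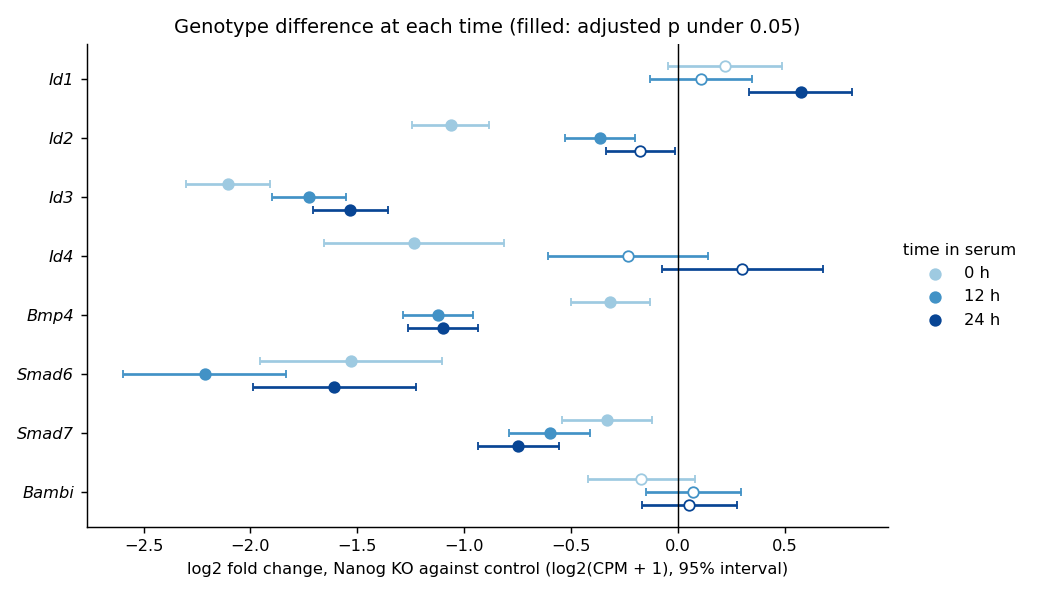
Log2 fold change of *Nanog* KO against control (horizontal axis, log2(CPM + 1)) for each gene at 0, 12 and 24 h in serum, with 95% intervals and filled points for adjusted p under 0.05 (limma). *Id3* and *Smad6* lie left of -1.5 at all times, *Id2* and *Id4* move toward 0, and *Bmp4* moves away from it after 0 h.

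Set side by side, the 8 genes had called rises and called falls together over each span of time in *Nanog* KO cells. In control cells, with all libraries, the calls over each span went in 1 direction only. In control cells, 1 gene rose and none fell in the first 12 h (22.6% and 24.5% of all tested genes), the riser being *Bmp4*. From 12 to 24 h none rose and 5 fell (15.1% and 16.8%), namely *Id1*, *Id3*, *Bmp4*, *Smad6* and *Smad7*. Over 24 h none rose and 2 fell (26.1% and 28.7%), namely *Id1*, by 0.57 ± 0.13 (limma, adjusted p = 0.00095), and *Smad7*. The count over 12 h was 3 without replicate 2 of the control at 0 h, with *Id4* (-0.65) and *Smad7* (-0.38) then called lower. The count over 24 h was 1 without replicate 3 of the control at 0 h, and 4 without replicate 3 of *Nanog* KO at 0 h or replicate 1 of *Nanog* KO at 24 h. The genes so gained were *Id3*, at -0.22, and *Smad6*, at -0.49, whose values stood as they were (adjusted p = 0.054 and 0.051 with all libraries).

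In *Nanog* KO cells, 4 rose and 2 fell in the first 12 h (25.7% and 26.1% of tested genes). The 4 were *Id2*, *Id3*, *Id4* and *Bambi*, and the 2 were *Smad6* and *Smad7*. From 12 to 24 h, 1 rose (*Id4*) and 2 fell (*Bmp4* and *Smad7*), against 13.1% and 14.3%. Over 24 h, 4 rose and 3 fell (28.8% and 29.5%), and *Id1* was the gene not called, at -0.22 ± 0.11 (limma, adjusted p = 0.11). It passed without replicate 3 of *Nanog* KO at 24 h (-0.30, adjusted p = 0.045).

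**Figure D4:**
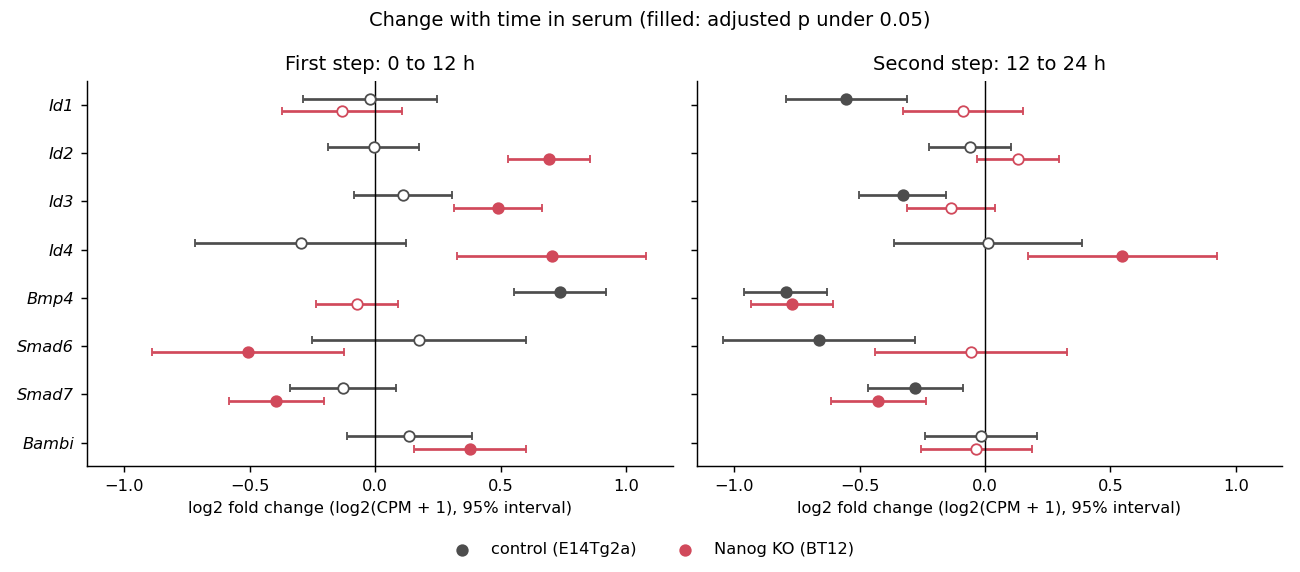
Log2 fold change with time (horizontal axes, log2(CPM + 1), 95% intervals) for the step from 0 to 12 h (left) and from 12 to 24 h (right) in control (grey) and *Nanog* KO (red) cells, filled where the adjusted p was under 0.05 (limma). In the first step *Bmp4* rises in the control and *Id2*, *Id3*, *Id4* and *Bambi* in *Nanog* KO, and in the second *Bmp4* falls in both.

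The lines differed in 4 of the 8 genes in the change over the first 12 h, with 3 interactions above 0 (*Id2*, *Id3* and *Id4*) and 1 below 0 (*Bmp4*), against 9.94% and 9.60% of tested genes. Over 24 h, 3 were above 0 and 2 below 0, the added gene being *Smad7* (15.5% and 14.3%). From 12 to 24 h none was called by limma, against 2.35% and 1.96% of tested genes, with 3 at an unadjusted p under 0.05 and 0 called by edgeR. *Smad6* had an interaction of -0.68 ± 0.27 over 12 h (limma, adjusted p = 0.088), and -0.89 (adjusted p = 0.024) without replicate 3 of *Nanog* KO at 0 h. That of *Smad7* was -0.27 ± 0.13 (adjusted p = 0.18), and -0.52 (adjusted p = 0.0029) without replicate 3 of the control at 0 h. These interactions use the 0 h libraries of the genotype comparison too, and so share their error.

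Over the 6 groups, the order of levels differed from gene to gene. For *Id3* the 3 control groups came first, and no 2 neighbouring groups overlapped except *Nanog* KO at 12 and 24 h. For *Id2* the control groups came first and overlapped each other, followed by *Nanog* KO at 24, 12 and 0 h. For *Bmp4* the control at 12 h was highest and *Nanog* KO at 24 h lowest, while the control at 0 and 24 h overlapped. For *Id1* the control at 24 h was lowest and overlapped no neighbour. For *Smad6* all control groups were above all *Nanog* KO groups, and the latter overlapped each other.

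Promoter windows, from 250 bases before to 50 after the RefSeq start (GRCm38.p6), were matched for 5 of the 8 genes. RefSeq and GENCODE starts differed for *Id3*, *Id2* and *Id4*. The windows of *Id3* and *Id2* lie wholly inside the gene bounds given above, and that of *Id4* ends before its bounds. Positions are from the RefSeq start, and sequence before the GENCODE starts of *Id3* and *Id2* was not searched. Shown are *Id3* and *Smad6*, lower in *Nanog* KO at all times, and *Id2*, which rose there in serum. Capitals mark GGCGCC, a GC-rich element that BMP Smads can bind, and GTCTAGAC, the palindromic Smad element, each searched on both strands with no overlap between them.
Id3, chr4:136143572-136143871, + strand: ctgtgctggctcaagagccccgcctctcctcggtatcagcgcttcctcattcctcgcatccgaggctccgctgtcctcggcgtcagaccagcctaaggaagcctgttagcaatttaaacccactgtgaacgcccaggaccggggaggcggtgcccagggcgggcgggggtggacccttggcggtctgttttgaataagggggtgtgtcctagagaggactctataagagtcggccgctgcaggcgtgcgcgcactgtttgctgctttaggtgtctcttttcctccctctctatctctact
Smad6, chr9:64022010-64022309, - strand: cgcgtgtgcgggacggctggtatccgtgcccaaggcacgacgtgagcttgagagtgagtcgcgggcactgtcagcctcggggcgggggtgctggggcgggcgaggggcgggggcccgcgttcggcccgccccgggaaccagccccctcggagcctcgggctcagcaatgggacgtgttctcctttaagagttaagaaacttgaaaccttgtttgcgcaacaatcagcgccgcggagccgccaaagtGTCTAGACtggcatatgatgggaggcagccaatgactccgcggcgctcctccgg
Id2, chr12:25096043-25096342, - strand: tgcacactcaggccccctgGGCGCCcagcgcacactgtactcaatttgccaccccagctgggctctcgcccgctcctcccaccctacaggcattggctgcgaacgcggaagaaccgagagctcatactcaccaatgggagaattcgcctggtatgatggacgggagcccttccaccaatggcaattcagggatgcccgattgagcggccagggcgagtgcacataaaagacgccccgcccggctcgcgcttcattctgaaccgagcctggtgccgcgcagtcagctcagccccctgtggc
The palindrome was found once, in *Smad6*, from 4 bases before to 4 bases after the start, and 0.213% of all 32851 promoter windows and 0.235% of the 13634 windows of tested genes hold it. GGCGCC was found in *Id2*, beginning at position -231 from the start, and in *Id4*, beginning at position -148, and 11.9% of all windows and 20.5% of the windows of tested genes hold it. Neither was in the windows of *Id3* and *Bmp4*. A match is a description of these letters only. The windows of the 5 genes held 60.0% to 73.3% G and C, against a median of 52.7% over all windows.

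Other genes of the pathway were taken from a list of 74 grouped by role, of which 62 were tested. In *Nanog* KO against control, 14 were higher and 31 lower at 0 h, 15 and 26 at 12 h, and 16 and 24 at 24 h, with median log2 fold changes of -0.18, -0.11 and -0.09. Of all tested genes 25.4% were higher and 26.9% lower at 0 h, 24.6% and 25.2% at 12 h, and 23.4% and 24.5% at 24 h, with medians of -0.01, -0.002 and -0.01. The counts by role at 0 h that follow are to be read against the same 25.4% and 26.9%. Of the 3 E proteins that Id proteins bind, all 3 were lower at each time. *Tcf3* (E2A) averaged 117 CPM with an SD of 2.96 (n = 3) at 0 h, and 243 CPM with an SD of 29.3 (n = 2) in the control, and *Tcf12* was 41.7 against 95.7 CPM, log2 fold changes of -1.05 and -1.18 (limma, adjusted p = 5.4e-08 and 3.5e-09). *Tcf4* had -0.26 at 0 h and -0.74 at 24 h (adjusted p = 0.038 and 1.5e-06).

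Of 6 ligands tested besides *Bmp4*, 3 were higher and 3 lower at 0 h. *Bmp2* and *Bmp7* were lower, at 2.54 against 6.59 CPM and 4.26 against 12.1 CPM, and *Bmp8b* was higher, at 7.61 against 3.53 CPM. *Bmp7* fell in control cells to 2.54 CPM at 24 h, where the difference was 0.13 (log2, limma, adjusted p = 0.39). *Bmp5*, named after its values were seen, rose in control cells from 0.887 to 6.07 CPM and was at 0.0347 and 0.0779 CPM in *Nanog* KO cells, below the level of 3 reads. Of 10 receptors and coreceptors, 5 were lower and 1 higher at 0 h, against 26.9% and 25.4% of all tested genes. At 0 h the type I receptor *Bmpr1a* was 84.1 against 94.7 CPM (-0.17, adjusted p = 0.14), the type II receptor *Bmpr2* 20.5 against 20.3 CPM (0.02, adjusted p = 0.89), and the coreceptor *Eng* 37.8 against 34.1 CPM (0.15, adjusted p = 0.20). In serum *Bmpr2* was lower in *Nanog* KO at 12 and 24 h (-0.44 and -0.46, limma, adjusted p = 0.001 and 0.00076). *Bmpr1a* was lower at 24 h only (-0.28, limma, adjusted p = 0.0095), and *Eng* was called at neither time.

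Of the 4 signalling Smads, the receptor Smads *Smad1* and *Smad5* were lower at 0 h (-0.55 and -0.61, limma, adjusted p = 6.1e-05 and 5.7e-05), and their partner *Smad4* had -0.13 (adjusted p = 0.071). At 12 and 24 h *Smad1* stayed lower (-0.40 and -0.36, limma, adjusted p = 0.00053 and 0.0015). *Smad5* was then not called (-0.11 and -0.14, limma, adjusted p = 0.34 and 0.23). Of 13 extracellular antagonists, 6 were lower and 2 higher at 0 h. *Nog*, which encodes the BMP trap Noggin, was 0.979 against 5.68 CPM and *Fst* (follistatin) 7.04 against 23.2 CPM, log2 fold changes of -1.75 and -1.59. *Twsg1*, the most abundant, had -0.18 (limma, adjusted p = 0.039). *Grem1* rose in both lines, with 24 h means of 17.2 CPM in the mutant (6.47 CPM at 0 h) and 10.8 CPM in the control (5.27 CPM at 0 h). Of 12 intracellular modulators, 5 were higher and 4 lower, such as the corepressors *Skil* (0.43) and *Ski* (-0.31), and the phosphatase gene *Ppm1b* had 0.22.

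Of 14 other target genes, 8 were lower and 3 higher at 0 h, against 26.9% and 25.4% of all tested genes. The homeobox gene *Msx1* rose in *Nanog* KO cells from 1.24 ± 0.20 to 8.25 ± 3.11 CPM (SD, n = 3), where the difference between the lines was 0.07 (log2, limma, adjusted p = 0.82). *Msx2* had 0.26 at 0 h (adjusted p = 0.19). *Tfap2c*, *Zfp423* and *Gata2* had -0.42, -0.31 and 0.10 at 0 h (adjusted p = 0.00041, 0.047 and 0.48). In serum *Tfap2c* stayed lower, and *Gata2* was higher at 12 and 24 h (0.37 and 0.72, limma, adjusted p = 0.004 and 6.7e-06). *Zfp423* was lower at 12 h (-0.48, limma, adjusted p = 0.0017) and not called at 24 h (-0.13, adjusted p = 0.36). *Hand1* and *Cdx2*, named after their values were seen, had the highest and the lowest fold change of the list at 0 h, at 29.2 against 1.55 CPM and 4.06 against 32.0 CPM. *Hand1*, *Gata3*, *Tfap2c* and *Cdx2* are also in the list of trophoblast markers, which summed to 1721 to 1796 CPM in *Nanog* KO and 1185 to 1280 CPM in control libraries at 0 h. The keratin genes *Krt8* (means of 882 and 629 CPM) and *Krt18* (546 and 356 CPM) were the largest of this list. Its members differed in direction, as *Krt7*, *Tead4*, *Eomes*, *Gata3* and *Hand1* were also higher in *Nanog* KO. *Cdx2*, *Tfap2c* and *Elf5* were lower there. The 7 mesoderm and streak markers in the table, *Hand1* among them, summed to 53.2 to 58.0 and 80.1 to 89.7 CPM. Over 24 h in serum 10 of the 62 genes rose and 24 fell in control cells, and 9 rose and 27 fell in *Nanog* KO cells, where 26.1% and 28.7% of all tested genes rose and fell in control cells and 28.8% and 29.5% in *Nanog* KO cells.

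**Figure D5:**
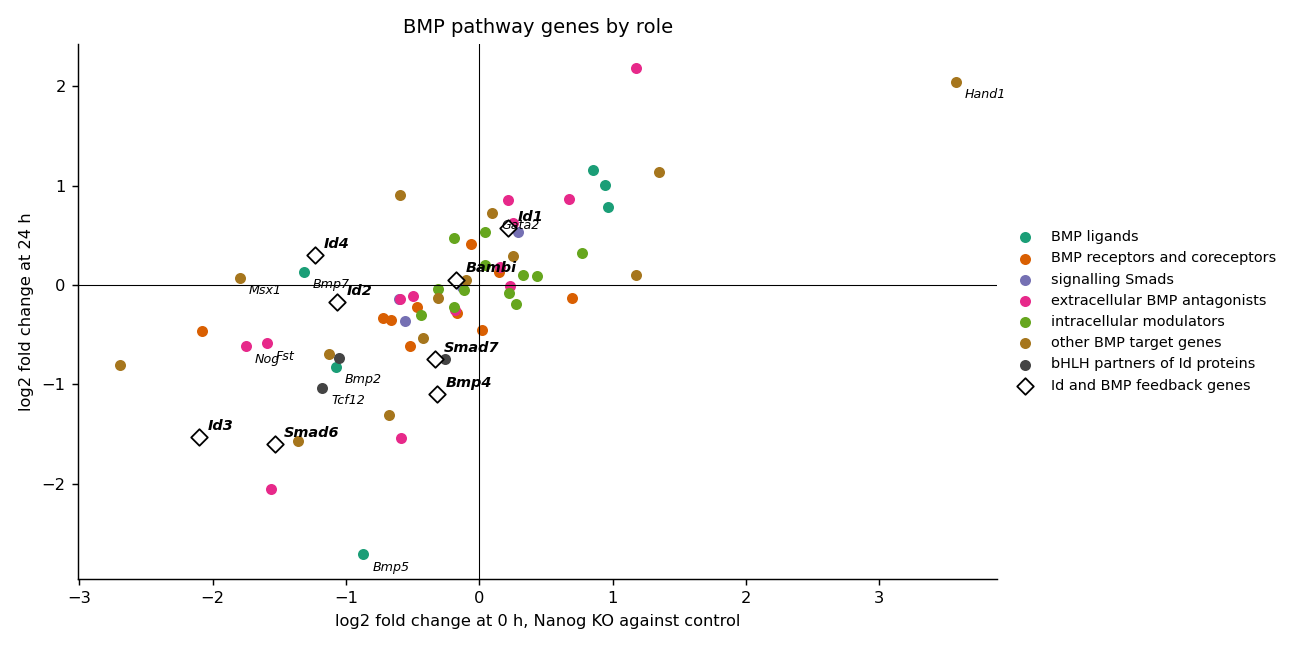
Log2 fold change of *Nanog* KO against control at 24 h (vertical axis) against that at 0 h (horizontal axis), for 62 BMP pathway genes coloured by role and the 8 genes described here (open diamonds). The axes share no libraries between times, and *Id3* and *Smad6* lie in the lower left, *Nog* and *Fst* lie left of -1.5 at 0 h but nearer 0 at 24 h, and *Bambi* lies near the centre.

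Genes with the most similar pattern over the 17 libraries were taken as those with the highest Pearson r of log2(CPM + 1). The search covered the 10257 or 10258 other tested genes with a mean of 5 CPM or more, once some were left out. Those left out were unnamed and predicted genes (Gm, Rik and clone names). The libraries fall into 2 lines and 3 times, so r mostly follows group levels and is a description. For *Id3* the most similar genes were *Col2a1*, *Cdh3* and *Il17rd* (r = 0.987, 0.983 and 0.983), and for *Id2* they were *Arrb2*, *Mex3b* and *Nabp2* (0.979, 0.962 and 0.960). For *Bmp4* they were *Nid1*, *Bmp1* and *Zswim1* (0.982, 0.962 and 0.962), for *Smad6* *Dmtn*, *Atp8b2* and *Ndn* (0.971, 0.963 and 0.962), and for *Smad7* *Col5a1*, *Cdk16* and *Sulf2* (0.968, 0.966 and 0.965). *Id1*, *Id4* and *Bambi* had no gene above 0.920, 0.912 and 0.851, the nearest being *Tpst2*, *Fam84b* and *Rsu1*. *Col5a1* is in the list of fibroblast markers. Among the 8 genes themselves *Id3* was nearest to *Smad6* (r = 0.907), and *Id1* had r below 0 with each of the others.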

How the data were processed

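The series holds 17 single-read Illumina RNA-seq libraries of mouse ES cells, which the labels assign to 2 genotypes and 3 times. The authors trimmed reads with cutadapt 1.3, quantified genes with RSEM on the GRCm38 transcriptome (Ensembl) and scaled them by TMM. CASAVA 1.8.2 and RSEM 1.2.3 are the versions in the submitters' processing notes (the methods state a different RSEM release). The deposited values are a signal in CPM, in which each read count was divided by a library size scaled with TMM. In each library 100% of values were whole multiples of 1 read (tolerance 0.001 reads), so reads per gene were recovered. The ComBat step named in the methods left no trace in them.

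The 15117 of 15470 rows that reached 1 CPM in 3 or more libraries were tested with limma 3.58.1 (R 4.3.3) on log2(CPM + 1), with a variance trend, 1 coefficient per genotype and time, two-sided tests and Benjamini-Hochberg adjustment over all tested genes. edgeR 4.0.16 was run on the recovered reads as an alternative. The others were median-ratio scaling, adding 0.1 CPM in place of 1, no variance trend, no filter on low values, a filter at a mean of 5 CPM, fitting only the compared groups, a block for the replicate number, and each library left out in turn. Both tests were also run on simulated data in which all groups had the same spread, so that run cannot speak to groups of unequal noise. Replicates differed by more than counting noise (mean squared difference 2.51 to 14.2 times that of counting), so none was a duplicate. It was 7.17 or more at 24 h and in the control at 0 h and 4.72 or less elsewhere, so a shared spread can understate the error of the noisier groups.

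The 8 genes, the pathway list and the marker lists were chosen with earlier results of these data known. All 8 genes, the 3 most abundant pathway genes per role and 10 further ones were to be named, with 3 similar genes per member. Of these similar genes, 1 is given for *Id1*, *Id4* and *Bambi*. Coordinates and merged exon lengths are from GENCODE M21 (GRCm38), matched by gene ID, and promoters from RefSeq.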

Additional observations from a re-analysis of the deposited data

Results flagged for a closer look

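The change with time differed between the lines, by limma's interaction test, in 9 cases, where the value is the log2 change in *Nanog* KO minus that in control cells. Over the first 12 h these were *Id2* (0.70, adjusted p = 0.00039), *Id3* (0.38, adjusted p = 0.039), *Id4* (1.001, adjusted p = 0.014) and *Bmp4* (-0.81, adjusted p = 0.00011). Over 24 h they were *Id2* (0.89, adjusted p = 1.6e-05), *Id3* (0.57, adjusted p = 0.002), *Id4* (1.54, adjusted p = 0.00029), *Bmp4* (-0.78, adjusted p = 6.7e-05) and *Smad7* (-0.41, adjusted p = 0.027). The 12 h value of *Bmp4* joins a called rise in control cells to a change of -0.07 in *Nanog* KO cells, and that of *Id2* a change of -0.01 in control cells to a called rise in *Nanog* KO cells.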

How the results depend on the processing

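Of 756 values of the 8 genes under alternatives that kept all libraries, 741 kept their direction and side of the threshold, 4 lost the call, 7 gained it and 4 changed sign. Leaving out 1 library at a time gave 1632 values, of which 1549 stayed, 28 lost the call, 19 gained it and 36 changed sign. None of the values called as reported changed sign. Median-ratio scaling moved the median of all genes by at most 0.011 (log2) and changed no call of the 8 genes.

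The 4 lost calls were the *Id3* interaction over 12 h (replicate block, and no variance trend) and the *Smad7* interaction over 24 h (only the compared groups, and no variance trend). With the filter at a mean of 5 CPM, which leaves out *Id4*, 27 pathway genes were called at 12 h (41 as reported) and 26 at 24 h (40). That filter also left out pathway genes such as *Bmp2*, *Bmp7* and *Nog*. The counts therefore have a smaller base than the 62 tested as reported, and do not show a smaller share called. The count over 24 h in control cells was 4 with that filter and 4 with edgeR, as *Id3* and *Smad6* were gained, against 2. With edgeR the sign turned for 4 values near 0, *Id2* over 12 h in control (0.0027), *Id4* and *Bambi* from 12 to 24 h in control (-0.019 and 0.0019) and the *Bmp4* interaction from 12 to 24 h (-0.0088).

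Leaving out 1 library, the members called ranged from 1 to 3 over 12 h and 1 to 4 over 24 h in control, and from 0 to 1 for the interaction from 12 to 24 h. Some values crossed 0, none of them called in the fit of all 17 libraries. In control over 12 h they ranged from -0.14 to 0.063 for *Id1*, -0.051 to 0.039 for *Id2*, -0.65 to 0.059 for *Id4* and -0.38 to 0.12 for *Smad7*. In control from 12 to 24 h they ranged from -0.071 to 0.12 for *Id4* and -0.089 to 0.039 for *Bambi*, and over 24 h from -0.64 to 0.072 for *Id4* and -0.15 to 0.0025 for *Bmp4*. In *Nanog* KO from 12 to 24 h the ranges were -0.17 to 0.021 for *Id1*, -0.26 to 0.086 for *Smad6* and -0.081 to 0.042 for *Bambi*. *Bambi* between the lines at 12 h ranged from -0.0030 to 0.13. The interactions ranged from -0.20 to 0.011 for *Id1* over 12 h, -0.037 to 0.12 for *Bmp4* and -0.073 to 0.058 for *Bambi* from 12 to 24 h, and -0.28 to 0.065 for *Smad6* over 24 h.

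Pairing of libraries by replicate number was not detected. The check cannot show whether same-numbered libraries were grown or handled together, as deviations within such small groups depend on each other. In 40 same-numbered pairs of deviations from the group means r ran from -0.19 to 0.10, 2 pairs passed 0.1 and 2 of 17 libraries correlated best with their own number. With a replicate block, 3 interactions were called over 12 h (4 without it, *Id3* being lost at 0.38, adjusted p = 0.061), 41 pathway genes were called at 0 h (45 without it), and no other call of the 8 genes changed. The cause of these changes was not tested, other than that the filter left fewer genes to test. Low counts limit *Id4* and *Smad6*.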
